A study of Drosophila melanogaster with 12 samples.

Results

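The Y chromosome of Drosophila melanogaster carries few protein-coding genes, and most of the known ones act in the testis. Described here are 10 of them: kl-2, kl-3 and kl-5, which encode axonemal dynein heavy chains, and ORY, CCY, Ppr-Y, WDY, ARY, PRY and Pp1-Y2. They were taken by name from a list of Y-linked fertility genes, which does not hold every protein-coding gene of the chromosome, and the rule uses no measured value. All 10 were found among the 17559 genes of each counts file, and all 10 passed the filter on low counts. The files come from reproductive tracts (accessory glands, testes and ejaculatory duct) of virgin males, sequenced as stranded total RNA. The study compared mating regimes, in 6 populations founded from the IV base population and sampled after 168 generations of experimental evolution. In 3 monogamous populations 1 male was paired with 1 virgin female each generation, and in 3 polygamous populations 5 males were housed with 5 females. In both regimes the males were discarded after the mating period and the females laid eggs in groups. Each population gave 1 library of males aged 48 h and 1 of males aged 96 h, each from 30 pooled tracts, so there were 4 groups of 3 libraries: monogamous 48 h, monogamous 96 h, polygamous 48 h and polygamous 96 h. A population is the replicate of its regime, the spread between single males within a pool was not measured, and 1 label field names the accessory gland alone where another names the whole tract.

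The sperm tail is built around an axoneme, whose beating is driven by dynein motor complexes arranged in inner and outer arms. Males lacking the kl genes make sperm that do not move or do not mature, which is why these loci were first mapped as Y-linked fertility factors. Several of these genes are among the largest in the fly genome because their introns hold long stretches of satellite DNA. They are transcribed in primary spermatocytes, where kl-3, kl-5 and ORY form the lampbrush-like Y loops, and their proteins are used later, in spermatids.

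The 12 libraries held 31367030 to 40581251 counts assigned to genes, all multiplexed on the same 2 lanes, and no pair of libraries was identical. At this depth 3 counts correspond to 0.0739 to 0.0956 CPM (gene counts scaled to a common library total), and the members had between 205 counts (PRY in polygamous population 1 at 48 h) and 3341 counts (CCY in monogamous population 3 at 48 h) per library. CPM here are scaled by edgeR's TMM factors. Testis was represented in every library: 14 spermatocyte marker genes took 0.178% to 0.212% of the gene counts and 16 spermatid and sperm genes 2.65% to 3.53%. The youngest monogamous library of population 1, at 48 h, was unlike the others: it had 0.735% of its counts on 10 accessory gland genes against 2.04% to 2.68% in the other 48 h libraries and 1.47% to 1.75% at 96 h. It also held the highest spermatid share, 3.53%. For the members, calls that rest on this library are given with and without it, as are many log2 changes of the age and 48 h comparisons. Medians over markers or members, summed levels and their ratios, correlations and counts of genes without overlap are given only with it. Apart from ranges near the end, so are regime differences over both ages. A bulk level cannot tell fewer cells of a type from less RNA per cell.

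The members lie on chromosome Y of the BDGP6.54 annotation, whose symbols and exon lengths were matched to the gene identifiers of the counts files. Spans are those of this annotation, and whether it holds the satellite introns in full was not checked. kl-2 (FBgn0001313), an inner-arm dynein heavy chain, spans Y 573088 to 664173 on the plus strand, with 13386 exon bases. kl-3 (FBgn0267432), an outer-arm heavy chain, spans 336381 to 563165 on the plus strand, with 13882 exon bases. kl-5 (FBgn0267433), the outer-arm beta heavy chain, spans 22250 to 137486 on the minus strand, with 13680 exon bases. The dynein exons are thus of nearly equal length, within annotated spans of 91086, 226785 and 115237 bases for kl-2, kl-3 and kl-5. ORY (FBgn0046323), named for its relation to occludin, spans 3561745 to 3618339 on the plus strand, with 2745 exon bases. CCY (FBgn0267592), which encodes a protein with coiled coils, spans 3649996 to 3666928 on the plus strand, with 4002 exon bases. Ppr-Y (FBgn0046697) has the longest annotated span of the 10, 248273 bases from 1636574 to 1884846 on the plus strand, for 1710 exon bases. WDY (FBgn0267449), a WD40 repeat gene, runs from 2273422 to 2487777 on the plus strand, with 3394 exon bases. PRY (FBgn0267489), a polycystin-related gene, runs from 146092 to 192020 on the minus strand, with 3744 exon bases. The remaining pair are compact: ARY (FBgn0058064), an aldehyde reductase gene, covers 702430 to 704048 on the plus strand with 1392 exon bases, and Pp1-Y2 (FBgn0046698), a catalytic subunit gene of a protein phosphatase, covers 3539437 to 3540722 on the minus strand with 1286 exon bases. No member shared exon bases with another annotated gene. Pseudogenes lie inside introns of kl-3 (CR45947), Ppr-Y (CR40441) and WDY (CR45948); the first pair had 0 counts in every library and CR45948 had 0 to 5 per library.

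Per kilobase of exon, the short enzyme genes stood highest and the dynein genes in the lower part of the order. ARY was at 36.4 ± 3.59 CPM per kb (SD, n = 12 libraries), Pp1-Y2 at 21.8 ± 2.72 and CCY at 18.9 ± 2.40. These 3 genes were clear of the remaining 7 in every library, and ARY did not overlap with Pp1-Y2, whereas the ranges of Pp1-Y2 and CCY overlapped although Pp1-Y2 was higher in all 12 libraries. Ppr-Y at 7.43 ± 0.971 and ORY at 7.34 ± 0.999 CPM per kb could not be ordered, with Ppr-Y the higher in 6 of 12 libraries, and ORY exceeded kl-5 (6.08 ± 0.570) in 10 of 12. Among the dynein genes kl-5 was above kl-3 (4.24 ± 0.434) with no overlap, and kl-2 was lowest at 3.18 ± 0.284. WDY, at 3.68 ± 0.322, lay between kl-3 and kl-2 and overlapped with both. PRY was lowest at 2.17 ± 0.258 CPM per kb and did not overlap with kl-2. The levels per kilobase assume that reads from the annotated exons are counted with equal efficiency along a gene, which was not tested.

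**Figure D1:**
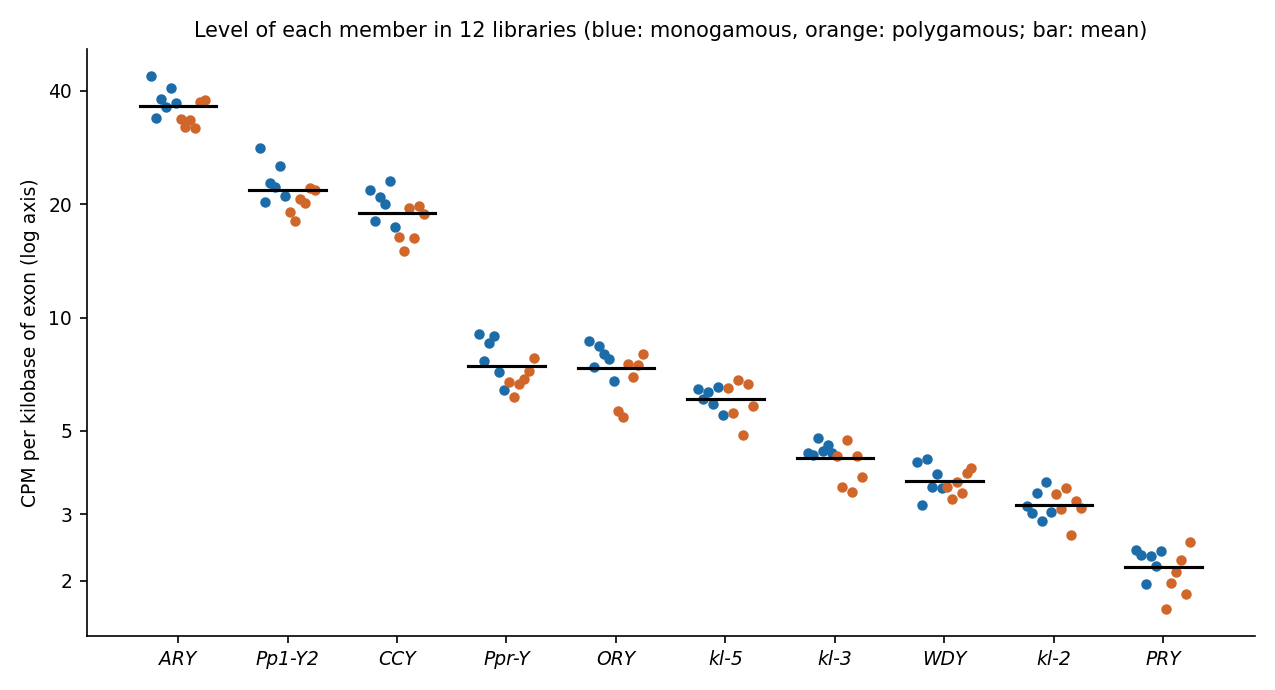
Level of each of the 10 Y-linked genes in CPM per kilobase of exon on a log axis, 1 point per library (blue monogamous, orange polygamous), with a bar at the mean over the 12 libraries. ARY, Pp1-Y2 and CCY lie above the remaining genes, and PRY is lowest at 2.17 CPM per kb.

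The first comparison was between ages, 96 h against 48 h, in males that had not mated. The dynein genes were lower at 96 h in all 6 populations, with averaged changes of -12.2% to -14.1%, and no member was called by edgeR's quasi-likelihood test with Benjamini-Hochberg adjustment at 0.05. Unless a block is named, the edgeR age values come from a fit that does not pair the 2 ages of a population. kl-5 was at 88.2, 86.6 and 89.4 CPM in monogamous populations 1, 2 and 3 at 48 h and at 83.2, 80.7 and 75.5 CPM at 96 h. In polygamous populations 1, 2 and 3 it was at 88.7, 93.3 and 90.9 CPM at 48 h and at 76.3, 66.6 and 79.6 CPM at 96 h. Each 96 h library of kl-5 therefore lay below each 48 h library, in both regimes. Averaged over regimes the log2 change of kl-5 was -0.22 ± 0.05 (SE), with means of 77.0 ± 5.82 CPM at 96 h against 89.5 ± 2.33 CPM at 48 h (SD, n = 6), and the adjusted p from edgeR was 0.0599.

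kl-2 had the same arrangement at a lower level. It was at 42.3, 45.8 and 48.9 CPM in the monogamous populations at 48 h and at 40.4, 38.4 and 40.7 CPM at 96 h. In the polygamous populations it was at 45.3, 47.3 and 43.7 CPM at 48 h and at 41.5, 35.4 and 41.8 CPM at 96 h. The highest 96 h library was just below the lowest 48 h library, so the ages did not overlap. The averaged log2 change of kl-2 was -0.20 ± 0.06 (SE; edgeR adjusted p = 0.126). Of all 13156 genes tested, 1.36% were lower at 96 h with no overlap between the 6 and 6 libraries.

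For kl-3 the ages overlapped, because monogamous males changed little. It was at 60.8, 66.6 and 63.5 CPM in the monogamous populations at 48 h and at 60.0, 61.4 and 60.5 CPM at 96 h. In the polygamous populations it was at 59.6, 65.6 and 59.5 CPM at 48 h and at 49.4, 47.7 and 52.2 CPM at 96 h. The polygamous 96 h libraries were the 3 lowest of the 12, and the other groups lay between 59.5 and 66.6 CPM. The averaged log2 change of kl-3 was -0.19 ± 0.05 (SE; edgeR adjusted p = 0.0694), with means of 55.2 ± 6.14 against 62.6 ± 3.10 CPM (SD, n = 6).

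**Figure D2:**
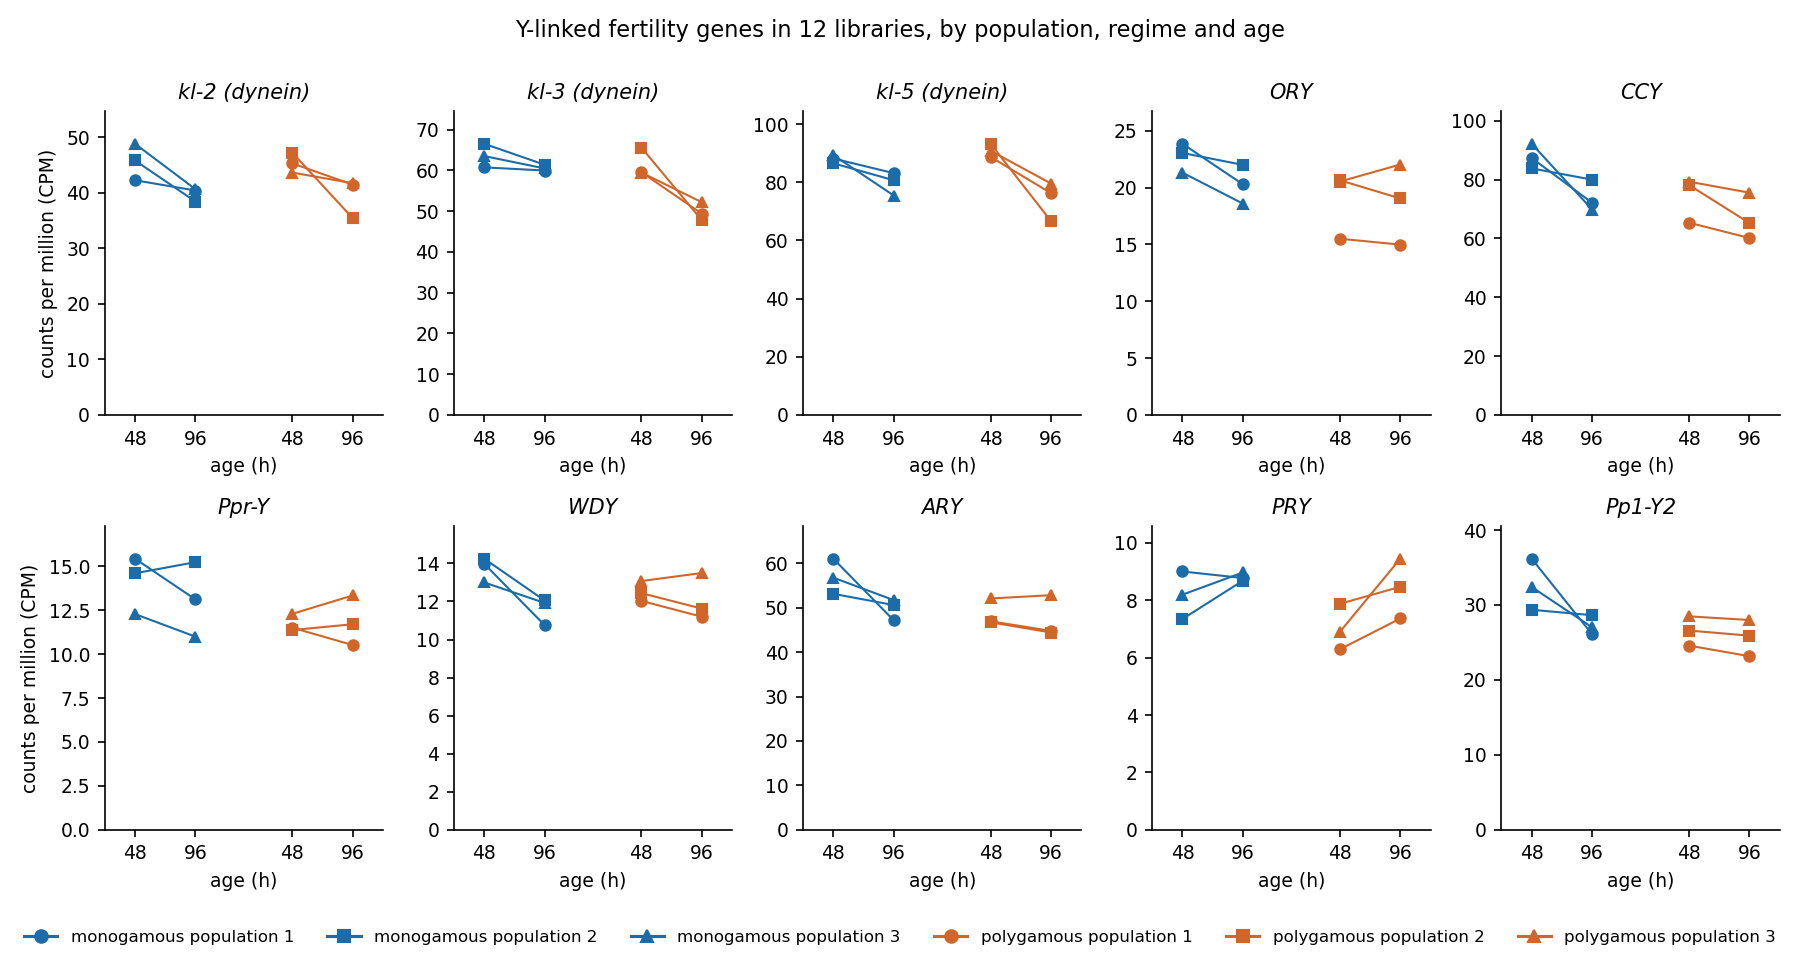
TMM-scaled CPM of each of the 10 genes against age in hours, 1 point per library, with a line joining the 48 h and 96 h libraries of a population (blue monogamous, orange polygamous). In kl-2 and kl-5 every 96 h library lies below every 48 h library, and in kl-3 the polygamous 96 h libraries (47.7 to 52.2 CPM) lie below all others.

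The remaining 7 genes were mixed in age. CCY was at 87.4, 83.8 and 92.2 CPM in the monogamous populations at 48 h against 72.1, 80.0 and 69.8 CPM at 96 h, and at 65.4, 78.2 and 79.3 CPM in the polygamous populations at 48 h against 60.2, 65.3 and 75.6 CPM at 96 h. It was lower at 96 h in 6 of 6 populations, with an averaged log2 change of -0.20 ± 0.07 (SE; edgeR adjusted p = 0.203). Pp1-Y2 was at 36.2, 29.4 and 32.4 CPM in monogamous males at 48 h and 26.1, 28.6 and 27.0 CPM at 96 h, but at 24.6, 26.6 and 28.5 CPM in polygamous males at 48 h and 23.2, 25.9 and 28.0 CPM at 96 h. Its direction was the same in 6 of 6 populations, although the polygamous differences were at most 0.09 on the log2 scale (averaged change -0.15 ± 0.07, edgeR adjusted p = 0.291). WDY (-0.15 ± 0.06) and ARY (-0.12 ± 0.06) were lower at 96 h in 5 of 6 populations, as was ORY (-0.09 ± 0.10), and Ppr-Y (-0.04 ± 0.10) in 3 of 6. PRY went the other way: it was at 9.005, 7.35 and 8.20 CPM in monogamous males at 48 h and 8.78, 8.69 and 8.97 CPM at 96 h, and at 6.29, 7.88 and 6.90 CPM in polygamous males at 48 h and 7.37, 8.47 and 9.45 CPM at 96 h. PRY was higher at 96 h in 5 of 6 populations, by 0.18 ± 0.09 on the log2 scale (edgeR adjusted p = 0.299). Leaving out the 48 h library of monogamous population 1 gave averaged changes of -0.20 for CCY, -0.12 for Pp1-Y2 and -0.14 for WDY. It gave -0.09 for ARY, -0.07 for ORY, -0.01 for Ppr-Y and 0.22 for PRY.

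Over both regimes, 0 of the 10 genes were called by edgeR against 1.47% of all genes tested, and 6 of the 10 had an unadjusted p under 0.05, as had 2238 of the 13156 genes. DESeq2 called 3, the dynein genes, all lower: kl-2 at -0.21 (adjusted p = 0.0322), kl-3 at -0.20 (0.00315) and kl-5 at -0.23 (0.00245), where it called 2.43% of all genes lower. The averaged change was negative in 9 of 10 members and in 47.6% of all genes, and of these 9 ORY and Ppr-Y turned positive when libraries were scaled to testis markers. Lower values in all 6 populations were found for kl-2, kl-3, kl-5, CCY and Pp1-Y2, and for 8.34% of all genes; 0 members were higher in all 6, against 10.1% of all genes. The median log2 change was -0.20 over the dynein genes, -0.12 over the other 7 and 0.01 over all genes.

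The dynein calls changed with the tool and with monogamous population 1. With edgeR and both libraries of that population left out, kl-2, kl-3 and kl-5 were called lower at adjusted p = 0.0427, 0.0271 and 0.0292. With only its 48 h library left out, the adjusted p from edgeR were 0.0253, 0.0122 and 0.0237, at averaged log2 changes of -0.22, -0.20 and -0.22. In these fits 3.53% and 3.8% of all genes were called lower. With population as a block and that population left out, CCY (-0.19, adjusted p = 0.0322) and PRY (0.22, adjusted p = 0.0344) were called as well, beside 11% of all genes lower and 10.7% higher. When libraries were scaled to the summed spermatocyte and spermatid markers instead, the averaged changes were -0.10 for kl-2 (adjusted p = 0.561), -0.09 for kl-3 (0.504) and -0.12 for kl-5 (0.353). That sum is mostly spermatid counts, at 2.65% to 3.53% of gene counts against 0.178% to 0.212% for the spermatocyte markers. With TMM the spermatid markers had a median averaged change of -0.12 and the spermatocyte markers 0.14. Scaling to spermatocyte markers alone was not tried. Under this scaling all genes had a median change of 0.11, against 0.01 with TMM. Since such a change of scaling shifts genes nearly alike, the distance of the dynein median from that of all genes, -0.21, is kept by construction and is no check of the difference. Over all alternatives the adjusted p ran from 0.00757 to 0.561 for kl-2, from 0.00315 to 0.504 for kl-3 and from 0.00245 to 0.353 for kl-5.

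Within polygamous males the largest differences between ages were those of kl-3 and kl-5, the outer-arm chains. All 3 dynein genes were lower at 96 h with no overlap between the 3 and 3 libraries, as were 12.2% of all genes. The log2 change was -0.31 ± 0.06 for kl-3 (SE; edgeR adjusted p = 0.163), from 61.6 ± 3.52 to 49.8 ± 2.25 CPM (SD, n = 3). It was -0.29 ± 0.07 for kl-5 (edgeR adjusted p = 0.249), from 91.0 ± 2.27 to 74.1 ± 6.73 CPM, and -0.20 ± 0.08 for kl-2 (edgeR adjusted p = 0.581). The other 7 genes ranged from -0.15 to 0.26 with a median of -0.04, and for each of them the ages overlapped. PRY was the highest of these, 0.26 ± 0.12, and was higher at 96 h in 3 of 3 polygamous populations (edgeR adjusted p = 0.656). edgeR called 0 of 10 members against 0.0988% of all genes, with 3 members, the dynein genes, and 1015 genes in all at an unadjusted p under 0.05. DESeq2 called kl-3 and kl-5 (adjusted p = 0.00211 and 0.0198) beside 0.642% of all genes called lower, and over all alternatives the adjusted p ran from 0.00155 to 0.658 for kl-3 and from 0.00956 to 0.661 for kl-5. Without both libraries of monogamous population 1, which enter only through the shared estimate of the spread and the scaling, edgeR called kl-3 (0.0234) and kl-5 (0.0464), and 2.12% of all genes lower. Without its 48 h library alone it called kl-3 (0.0146) and kl-5 (0.0398), and 2.11% of all genes lower. With population as a block and that population left out, it called kl-3 (0.00155) and kl-5 (0.00956), and 8.48% of all genes lower.

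Within monogamous males the lower level at 96 h was spread over both kinds of gene. Ages did not overlap for kl-2, kl-5, CCY, WDY, ARY and Pp1-Y2, 6 of the 10, where 7.72% of all genes were lower without overlap. The largest log2 changes were -0.26 ± 0.10 for Pp1-Y2 (SE; edgeR adjusted p = 0.288), -0.25 ± 0.09 for WDY (0.283) and -0.25 ± 0.10 for CCY (0.306). ARY differed by -0.19 ± 0.09, kl-2 by -0.20 ± 0.08, kl-5 by -0.14 ± 0.07 and kl-3 by -0.07 ± 0.06. edgeR called 0 of 10 against 0.547% of all genes, with 5 members and 1943 genes in all at an unadjusted p under 0.05, and DESeq2 called 0 of 10 against 2.36%. Within the regime, monogamous population 1 had the largest difference in Pp1-Y2 (-0.47 on the log2 scale), WDY (-0.38) and ARY (-0.37), and the smallest in kl-2 (-0.06), kl-3 (-0.02) and kl-5 (-0.08). In population 2 of the same regime, Pp1-Y2 and ARY differed by -0.04 and -0.07. Without the 48 h library of population 1 the changes were -0.18 for Pp1-Y2, -0.23 for WDY, -0.25 for CCY and -0.14 for ARY. Scaling to the testis markers turned kl-3 and Ppr-Y to 0.07 and 0.05 in monogamous males, where it moved the median of all genes to 0.16.

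**Figure D3:**
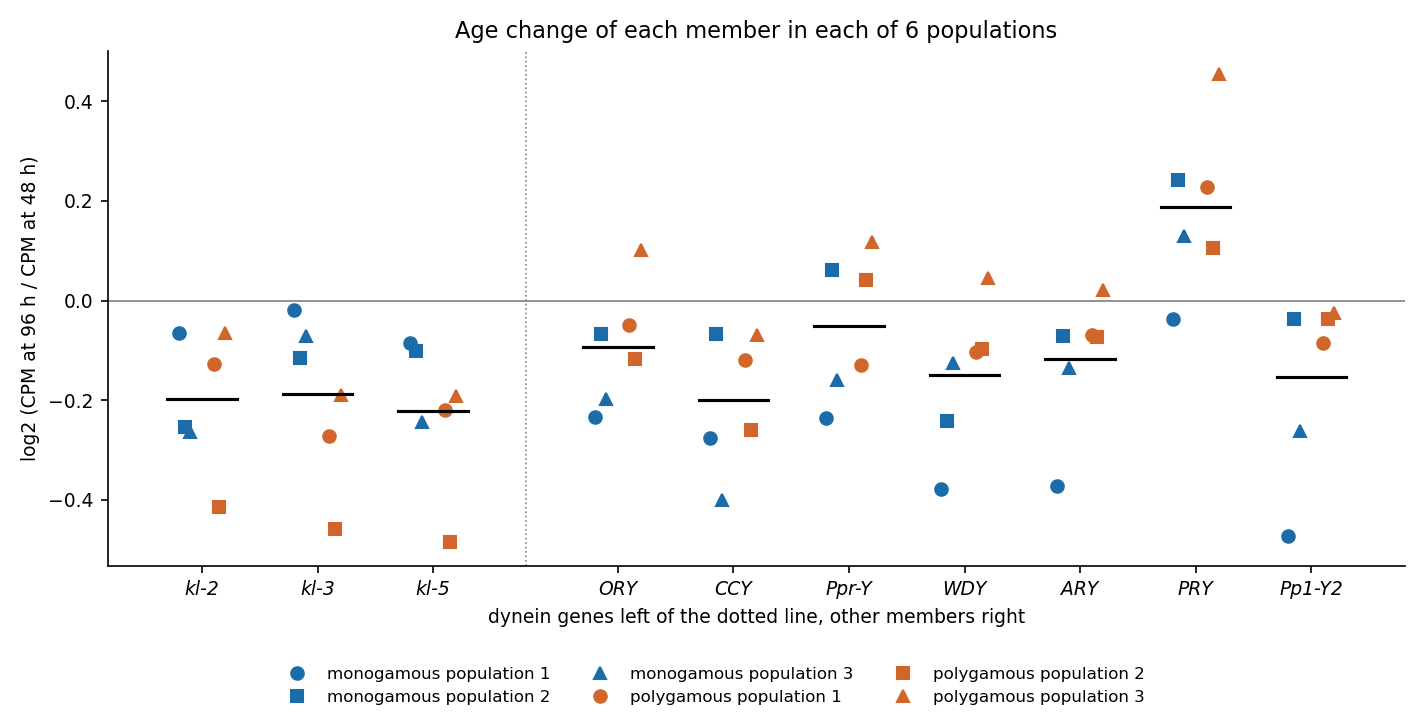
Log2 ratio of 96 h to 48 h CPM for each gene in each of the 6 populations (blue monogamous, orange polygamous), with a bar at the mean of the 6. The dynein genes lie below 0 in all populations, lowest in polygamous population 2 (-0.42 to -0.49), and PRY lies above 0 in 5 of 6.

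Marker lists were read in the same comparison. Of 14 spermatocyte markers 13 were higher at 96 h (median log2 change 0.14), and of 16 spermatid and sperm markers 16 were lower (median -0.12); edgeR called 0 in both lists, with 6 and 4 at an unadjusted p under 0.05 and smallest adjusted p of 0.0526 and 0.204, and DESeq2 called 2 and 0. The spermatid median was -0.01 when libraries were scaled to the testis markers, which include that list. Several lists of other tissues were further from 0: -0.33 over 10 accessory gland genes (7 lower, 1 called lower by edgeR), -0.51 over 6 genes of the ejaculatory duct and bulb (4 lower, 1 called lower) and -0.47 over 6 haemocyte genes (6 lower, 1 called lower). Some genes of the first lists were uneven between libraries. Ebp ran from 0.575 to 506 CPM (median 2.39) and EbpII from 0.102 to 141 CPM (median 1.63). Sfp87B ran from 0.0639 to 166 CPM (median 0.932) and Sfp24Ba from 0 to 15.9 CPM (median 0.0996). Fat body genes, of which 4 of 5 tested were lower, had a median of -0.69 with 0 called by edgeR, 3 at an unadjusted p under 0.05 and 2 called by DESeq2. The part of these shifts in the levels of the Y-linked genes was not tested.

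Other genes of the axoneme and of the Y loops were read from lists. Of 5 matched autosomal axonemal dynein heavy chains, 4 were tested and 0 were called by edgeR in the averaged age comparison, with 1 at an unadjusted p under 0.05 and 0 called by DESeq2. All 4 were lower at 96 h, with a median log2 change of -0.09 that became 0.01 under testis scaling. Dhc36C, the most abundant at 375 CPM or 30.4 CPM per kb, was lower in 6 of 6 populations (-0.11 ± 0.04, edgeR adjusted p = 0.207), and Dhc98D stood at 254 CPM or 15.9 CPM per kb. The Y-linked heavy chains, at 3.18 to 6.08 CPM per kb, lay within the range of this list, below Dhc36C, Dhc98D and Dhc62B (10.3 CPM per kb) and above CG3339 (0.156) and Dhc93AB (0.00714, under the filter). Of 24 matched dynein intermediate and light chains, docking and assembly factors, 22 were tested; 11 were lower and 11 higher at 96 h, and 0 were called by edgeR, with 1 at an unadjusted p under 0.05, or by DESeq2. The most abundant of these were CG10859 (549 CPM) and robl62A (447 CPM). Of 8 RNA-binding proteins linked to the Y loops, edgeR called 0, with 5 at an unadjusted p under 0.05, and DESeq2 called 2. Their median log2 change was 0.12, with 6 of 8 higher at 96 h. Among them blanks, which encodes a testis RNA-binding protein needed for expression of Y loop genes, was higher in 6 of 6 populations (0.21 ± 0.08, edgeR adjusted p = 0.217), as were heph, Rb97D, Hrb87F and B52, and as were 10.1% of all genes, while ps was lower in 6 of 6 (-0.09 ± 0.03). The most abundant were bol at 1138 CPM and ps at 511 CPM.

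The next comparison set the dynein genes against the other 7 within each library. The summed dynein level was 197 ± 5.45 CPM in monogamous males at 48 h and 180 ± 3.49 at 96 h (SD, n = 3), and 198 ± 7.12 and 163 ± 12.3 CPM in polygamous males. The summed level of the other 7 was 236 ± 10.7 and 205 ± 10.7 CPM in monogamous males at 48 and 96 h, and 199.6 ± 15.7 and 191 ± 21.7 CPM in polygamous males. At 48 h the regimes therefore had nearly equal dynein sums, while the sum of the other 7 was lower in polygamous males. The ratio of the dynein sum to the other sum was 0.775 to 0.882 in monogamous males at 48 h, 0.831 to 0.926 in monogamous males at 96 h, 0.912 to 1.06 in polygamous males at 48 h and 0.803 to 0.971 in polygamous males at 96 h. The polygamous 48 h group was highest and did not overlap with the monogamous 48 h group, whereas the 96 h groups overlapped.

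The difference of age changes between regimes, polygamous minus monogamous, had opposite signs in the sets. It was -0.24 ± 0.09 for kl-3 (SE), -0.15 ± 0.10 for kl-5 and -0.002 for kl-2, and positive for 7 of 7 others, from 0.10 to 0.21. The set medians were -0.15 and 0.15, against 0.01 over all genes, of which 47.5% were below 0. edgeR called 0 of 10 members (adjusted p from 0.919 to 0.999) and 0% of all genes, with 1 member and 325 genes at an unadjusted p under 0.05, and DESeq2 called 0 of either. The signs were the same under testis scaling, where the set medians were -0.24 and 0.06. The value of kl-2, near 0, changed sign under other settings. Without the 48 h library of monogamous population 1, kl-3 was at -0.21, kl-5 at -0.15, kl-2 at 0.05 and the 7 others at 0.05 to 0.18. Transcript length differs between the sets. Over 141 genes with at least 12 kb of exon, a threshold chosen after values were seen, the median difference of age changes was -0.15 and 112 were negative. Their median age change was 0.02 averaged over regimes (58 negative), 0.08 in monogamous and -0.05 in polygamous males. The dynein medians in these comparisons were -0.20, -0.14 and -0.29. The part of length in the dynein values was not tested.

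**Figure D4:**
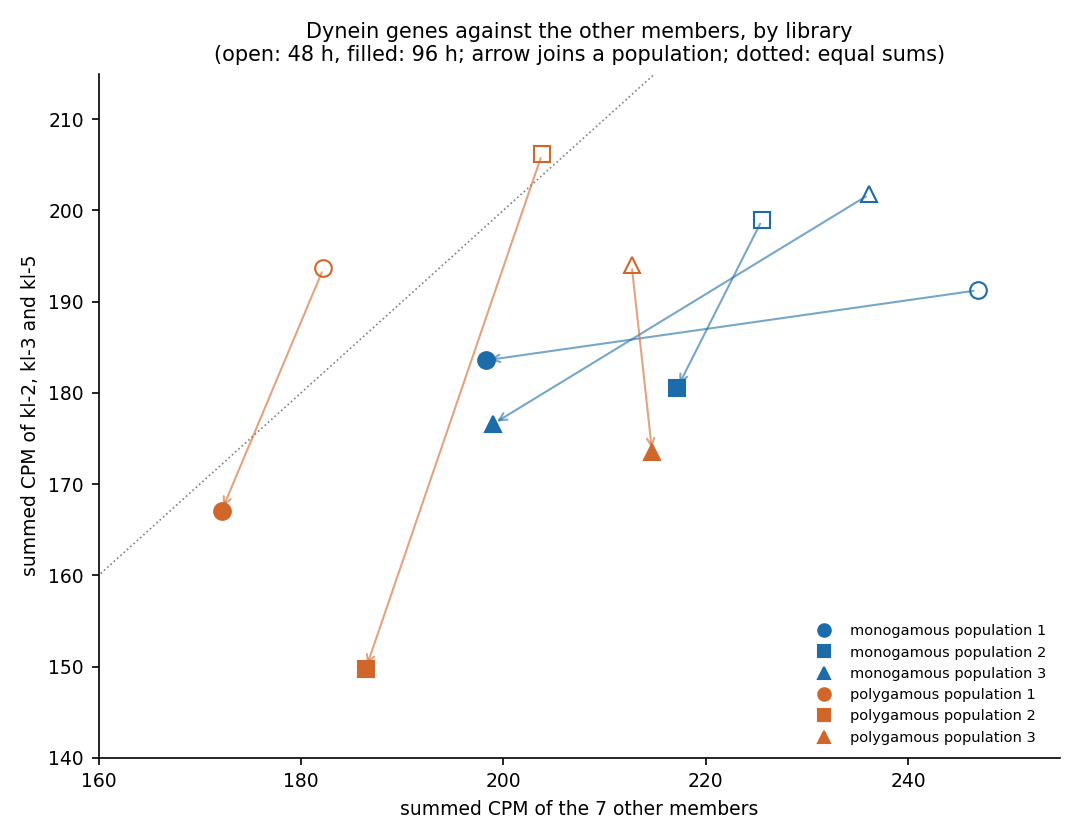
Summed CPM of the 3 dynein genes against that of the other 7 in each library, with an arrow from the 48 h to the 96 h library of a population and a dotted line at equal sums; both axes start above 0. The ratio of the sums is 0.912 to 1.06 in polygamous males at 48 h, and the dynein sum of polygamous population 2 is 206 CPM at 48 h and 149.8 CPM at 96 h.

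The regime comparison at 48 h asked whether males of the polygamous populations differed from those of the monogamous ones. All 7 non-dynein genes were lower in polygamous males, except WDY under testis scaling, with a median log2 difference of -0.24, while the dynein median was -0.01. Over the 141 genes with at least 12 kb of exon, the median in this contrast was 0.16 and 32 were negative. The part of transcript length in the split between the sets was not tested. ORY, CCY, ARY and Pp1-Y2 did not overlap between the regimes, where 10.4% of all genes were lower without overlap. The largest log2 difference was that of Pp1-Y2, -0.30 ± 0.10 (SE; edgeR adjusted p = 0.257), whose libraries ran from 24.6 to 28.5 CPM in polygamous and from 29.4 to 36.2 CPM in monogamous males. ORY was at 23.8, 23.0 and 21.3 CPM in monogamous populations 1, 2 and 3 and at 15.5, 20.6 and 20.5 CPM in the polygamous populations (-0.27 ± 0.15, edgeR adjusted p = 0.343). Polygamous population 1 was the lowest, and populations 2 and 3 lay just under the lowest monogamous library. ARY was at 61.1, 53.1 and 56.8 CPM against 47.0, 46.7 and 52.1 CPM (-0.23 ± 0.09, edgeR adjusted p = 0.267), and CCY differed by -0.24 ± 0.10 (edgeR adjusted p = 0.283). Ppr-Y (-0.26 ± 0.14), PRY (-0.22 ± 0.12) and WDY (-0.13 ± 0.09) were lower on average with overlapping libraries.

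edgeR called 0 of 10 members and 0% of all genes at 48 h, with 3 members and 2249 genes at an unadjusted p under 0.05. DESeq2 called 0 members and 1.09% of all genes. The 7 of 7 lower values compare with 50.2% of all genes below 0. Under testis scaling all genes had a median of 0.15 and the 7 a median of -0.10, and kl-2, kl-3 and WDY were at 0.13, 0.10 and 0.02. In the same contrast 16 of 16 spermatid and sperm markers were lower in polygamous males, with a median of -0.19 that became -0.02 under testis scaling. That scaling uses this list, so a median near 0 follows by construction. Accessory gland markers were higher in 10 of 10 (median 0.53), muscle markers in 8 of 8 (0.34) and fat body markers in 4 of 5 (0.92), while haemocyte markers were lower in 5 of 6 (-0.77). These medians include the 48 h library of monogamous population 1 and were not computed without it. edgeR called 0 in each of these lists, with 5 spermatid, 3 muscle and 1 haemocyte marker at an unadjusted p under 0.05, and DESeq2 called 1, a haemocyte marker. The 48 h library of monogamous population 1 was the highest of the 12 for ORY, Ppr-Y, ARY and Pp1-Y2. Without that library the differences were -0.22 for Pp1-Y2, -0.24 for CCY, -0.23 for ORY, -0.18 for ARY and -0.19 for Ppr-Y. They were then -0.15 for PRY, -0.12 for WDY, -0.06 for kl-2, -0.08 for kl-3 and 0.05 for kl-5. The part of these markers in the difference was not tested.

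At 96 h kl-3 had the largest difference between the regimes among the 10, and it was not called by edgeR. It was at 60.6 ± 0.720 CPM in monogamous males and 49.8 ± 2.25 CPM in polygamous males (SD, n = 3), with no overlap, as for 5.15% of all genes in the lower direction. The log2 difference of kl-3 was -0.28 ± 0.06 (SE), with an edgeR adjusted p of 0.729 and a DESeq2 adjusted p of 0.0244 at -0.29, where DESeq2 called 0.106% of all genes lower; over all alternatives the adjusted p ran from 0.0244 to 1.000. The other outer-arm chain, kl-5, differed by -0.11 ± 0.07 and the inner-arm chain kl-2 by -0.01, and the 7 other genes by -0.15 to 0.06, all with overlapping libraries. edgeR called 0 of 10 members and 0% of all genes, with 1 member and 486 genes at an unadjusted p under 0.05. Whether kl-3 differs from kl-5 in this contrast was not tested.

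With the counts of both ages of a population added, the 10 genes were all lower in polygamous populations, by -0.20 to -0.003 on the log2 scale with a median of -0.15, where 48.3% of all genes were below 0. CCY (-0.19 ± 0.08), Pp1-Y2 (-0.18 ± 0.08) and kl-3 (-0.16 ± 0.05) did not overlap between regimes, where 9.04% of all genes were lower without overlap. edgeR called 0 of 10 (smallest adjusted p 0.520) and 0% of 13512 genes, with 2 members and 1280 genes at an unadjusted p under 0.05. DESeq2 called 0 members and 0.588% of all genes. Under testis scaling kl-2, kl-5 and WDY were at 0.10, 0.08 and 0.08, where the median of all genes was at 0.11. In this comparison 16 of 16 spermatid markers were lower in polygamous populations (median -0.11, and -0.005 under testis scaling, which uses this list). Of the muscle markers 8 of 8 were higher (0.20), and of the accessory gland markers 8 of 10 (0.27). In these 3 lists 0 were called by edgeR (4, 3 and 2 at an unadjusted p under 0.05) or by DESeq2, and their part in the difference was not tested.

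Populations of the same regime were compared with the 48 h and 96 h libraries of each as its pair of values. Over the mean of both ages, the ratio of the highest to the lowest polygamous population was 1.40 in ORY and 1.23 in CCY and from 1.14 to 1.20 in the other non-dynein genes, against 1.04 to 1.07 in the dynein genes. The order of the polygamous populations in the dynein genes changed between ages, so this mean hides differences within an age. At 96 h alone they ran from 66.6 to 79.6 CPM in kl-5, 35.4 to 41.8 in kl-2 and 47.7 to 52.2 in kl-3. As a percent of the mean, the SD of these 3 libraries was 4.52% to 9.08% in the dynein genes. It was 9.43% to 18.9% in the other 7. Among monogamous populations the ratio was 1.28 in Ppr-Y and 1.03 to 1.13 in the other non-dynein genes, which overlaps with 1.04 to 1.08 in the dynein genes. ORY was at 15.5 and 14.98 CPM at 48 and 96 h in polygamous population 1, at 20.6 and 19.0 in population 2 and at 20.5 and 22.02 in population 3. Polygamous population 1 was thus below every other library at both ages, the nearest being 18.6 CPM in monogamous population 3 at 96 h. Its edgeR adjusted p was 0.0760 among the polygamous populations and 0.0826 over both regimes. Ppr-Y was at 12.3 and 10.996 CPM at 48 and 96 h in monogamous population 3, against 15.4 and 13.1 in population 1 and 14.6 and 15.2 in population 2 (edgeR adjusted p = 0.158 among monogamous populations).

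Polygamous population 1 was the lowest of its regime at both ages for ORY, CCY, WDY, PRY and Pp1-Y2, as for 17.3% of all genes, and for 0 dynein genes. Polygamous population 3 was highest at both ages for CCY, Ppr-Y, WDY, ARY and Pp1-Y2, as for 16.2% of all genes. At 96 h it was highest for 10 of 10 members, the dynein genes included. The dynein genes did not keep their order between ages: polygamous population 2 was the highest of its regime in all 3 at 48 h and the lowest in all 3 at 96 h. Population 2 was also highest for ORY and PRY at 48 h and lowest for ARY at 96 h. The shares of all genes with these orders at a single age were not computed. The summed dynein level of polygamous population 2 was 206 CPM at 48 h and 149.8 CPM at 96 h, the highest and the lowest of the 12 libraries. In monogamous populations no population was lowest at both ages for more than 2 members; population 3 was so for ORY and Ppr-Y, as for 17.7% of all genes.

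edgeR called 0 of 10 members between populations within regimes, where 5.69% of all genes were called, 0 among monogamous populations (5.89%) and 0 among polygamous populations (2.47%). Members at an unadjusted p under 0.05 numbered 2, 1 and 2, against 2589, 3175 and 1465 of the 13156 genes, and DESeq2 called 0 in each, beside 6.81%, 6.45% and 2.37% of all genes. This test has 4 residual degrees of freedom per gene and measures spread around an age change common to a regime. Without both libraries of monogamous population 1, ORY (adjusted p = 0.00234), Ppr-Y and ARY were called within regimes, beside 20.9% of all genes, and ORY (0.00263) and ARY among polygamous populations, beside 11.6%. Without its 48 h library alone, ORY, Ppr-Y and ARY were called within regimes (23% of all genes), ORY (0.00272) and ARY (0.0236) were called among polygamous populations (11.5% of all genes) and Ppr-Y (0.0319) among monogamous populations (19.1%). Without its 96 h library alone, ORY, Ppr-Y, ARY and Pp1-Y2 were called within regimes (52.7% of all genes), Ppr-Y among monogamous populations (53.1%) and ORY and ARY among polygamous populations (11.6%). In the fits that leave out only 1 library of monogamous population 1, that population is not seen at both ages. Its coefficient then rests on a single library, so calls within regimes and among monogamous populations cannot tell that library from the population. Without the 96 h library it is the unlike 48 h library, the highest of all for ORY, Ppr-Y, ARY and Pp1-Y2. The dynein genes had adjusted p from 0.837 to 0.890 within regimes in the fit with all libraries. Of the 22 tested dynein chains, docking and assembly factors, 4 were called within regimes: Sdic2 (0.0322), Sdic3 (0.00577), ODA-Dnal1 (0.0227) and CG5359 (0.0381). The Sdic genes are near-identical X-linked copies, so how reads were divided among them is uncertain.

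**Figure D5:**
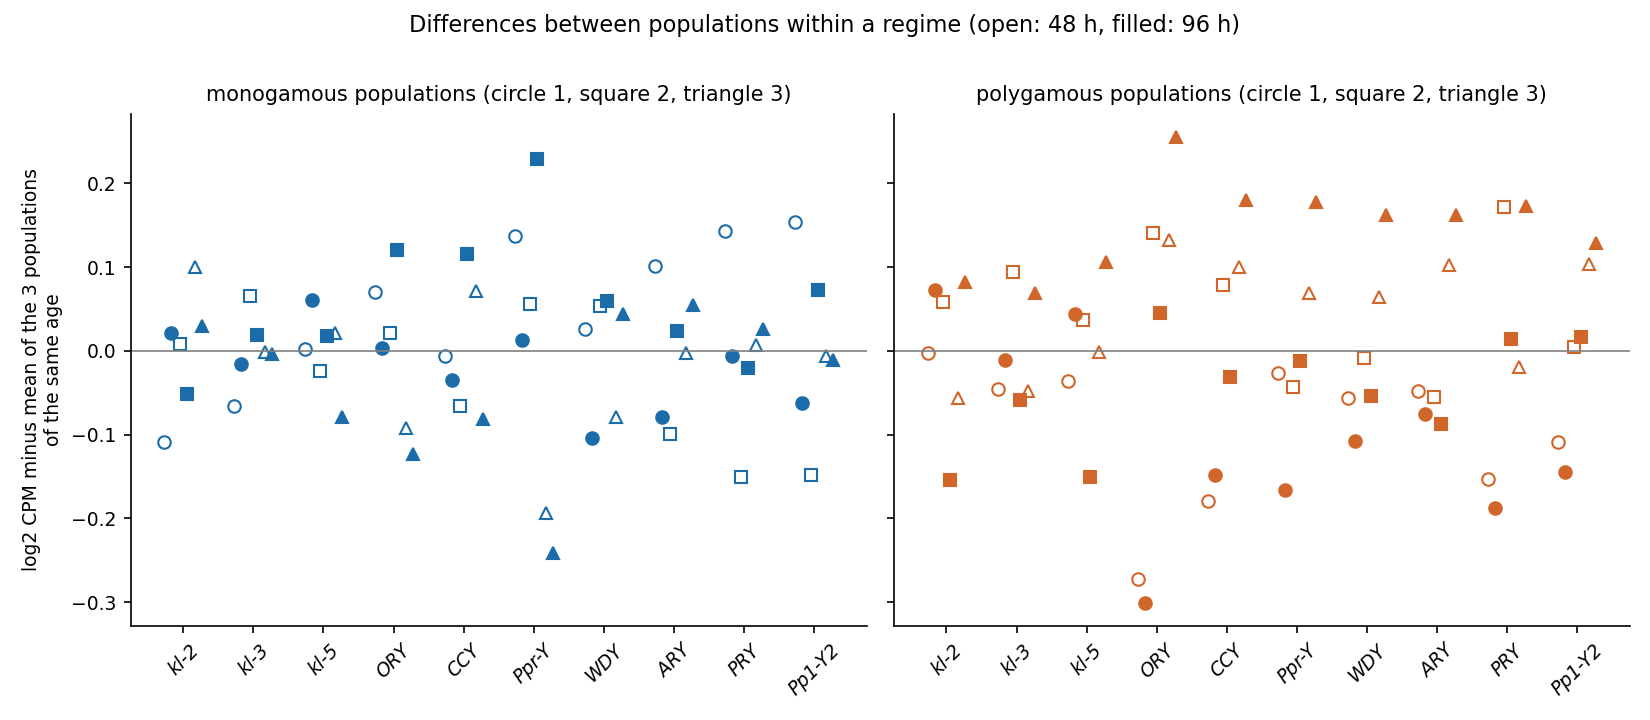
Log2 CPM of each gene in each library minus the mean of the 3 populations of the same regime and age (circle, square and triangle for populations 1, 2 and 3; open 48 h, filled 96 h). Polygamous population 1 is lowest for ORY at both ages (15.5 and 14.98 CPM), and polygamous population 2 is highest at 48 h and lowest at 96 h for the dynein genes within its regime.

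The members also varied together within their sets. After each library was centred on its group mean, the median Pearson correlation of log2 CPM over the 12 libraries was 0.62 among the 3 dynein pairs (0.48 to 0.64) and 0.60 among the 21 pairs of other genes (0.28 to 0.87). Between a dynein gene and another member it was 0.14 over 21 pairs (-0.43 to 0.44). These are descriptions: the pairs share libraries, scaling and pooled tissue. Genes whose log2 CPM followed the mean of the 10 members most closely over the 12 libraries were CG7362 on 3R (r = 0.972), bb8 (0.946), gish (0.945), Adgf-A2 (0.944), RhoGEF3 (0.939), Adgf-B (0.929), lncRNA:CR32652 (0.923), CG10841 (0.919), CG32086 (0.918) and CG11249 (0.917). None of these lies on the Y chromosome. The mean of all 10 joins sets that correlated little with each other. For the dynein mean alone the closest were Obp84a (r = 0.897, 0.455 CPM), lncRNA:CR45402 (0.881, 0.498 CPM) and CG30259 (0.877, 1.73 CPM). For the mean of the other 7 they were gish (0.960), Adgf-A2 (0.944) and CG32655 (0.937).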

How the data were processed

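The deposited files give raw counts per gene for 12 libraries, made by the authors from stranded total RNA. Per the submitters' processing notes, Trimmomatic 0.33, TopHat2 2.1.0, HTSeq 0.6.1 and the BDGP6 build were used; the annotation release, strand setting and counting mode are not given in the sources used here. The summary lines at the end of each file, 15.1% to 17.2% of the listed reads, were left out. Symbols, exon lengths and positions came from the Ensembl BDGP6.54 annotation, in which 17253 of 17559 identifiers had a symbol.

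Counts were fitted with edgeR 4.0.16 (quasi-likelihood F test, robust, TMM scaling, filterByExpr) in R 4.3.3, with 1 coefficient per group over all 12 libraries, and p-values were adjusted by Benjamini-Hochberg over all genes tested; 0.05 was the threshold. Populations were tested with population coefficients added, and regimes over both ages on summed counts. SE was derived from the log2 change and its F value. 10 comparisons were made. DESeq2 1.42.0, other scalings, no filter, omitted libraries and population blocks were tried. The fitting script was tested on simulated data. The 48 h and 96 h libraries of a population come from the same population, and their deviations from the group means correlated at 0.390 to 0.570. The age values, SE and adjusted p given from edgeR leave this pairing out, except where a block is named. Population as a block for age was an alternative. With all libraries in, the block called 0 members, as did the fit without it. Calls over all genes then rose from 194 to 475 averaged over regimes, from 72 to 252 in monogamous and from 13 to 62 in polygamous males.

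All 10 members were named throughout. The members, lists and tests were chosen with earlier results of these data known. Some list symbols had no match and were not analysed here.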

Additional observations from a re-analysis of the deposited data

How the results depend on the processing

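With all 12 libraries and edgeR, 0 members were called in each comparison, and this held with DESeq2's size factors, testis gene size factors and no filter. It also held with the replicate block in the age and regime comparisons. The block was not applied to comparisons between populations. It paired libraries by population for age and by a number shared only in name between regimes (same-number correlations -0.148 to 0.199). DESeq2 called 2 members in polygamous males, 3 averaged over regimes and 1 between regimes at 96 h. Leaving out both libraries of monogamous population 1 gave 2 in polygamous males, 3 averaged over regimes, 3 between populations within regimes and 2 among polygamous populations; joined with the replicate block, an alternative added after seeing the data, it gave 2 and 5 for the polygamous and the averaged age comparison. Leaving out each library in turn gave 0 to 2 members in polygamous males, 0 to 3 averaged over regimes, 0 to 4 between populations within regimes, 0 to 1 among monogamous and 0 to 2 among polygamous populations. Over all genes the averaged age comparison called 194, against 475 with the block, 611 with DESeq2 and 805 without monogamous population 1. The causes were not tested.

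Some small differences changed sign. With testis gene size factors the log2 change became 0.0690 for kl-3 and 0.0467 for Ppr-Y in monogamous males; 0.0393 for ORY, 0.0079 for WDY, 0.0177 for ARY and 0.0081 for Pp1-Y2 in polygamous males; and 0.0110 for ORY and 0.0584 for Ppr-Y averaged. Between regimes it became 0.13 for kl-2, 0.0975 for kl-3 and 0.0193 for WDY at 48 h, 0.0555 for kl-2 at 96 h, and 0.0994 for kl-2, 0.0816 for kl-5 and 0.0766 for WDY over both ages. Without monogamous population 1, kl-2 became 0.00053 at 96 h and 0.0613 in the difference of age changes; with the block too, ORY and PRY became 0.0140 and 0.0145 at 96 h and kl-2 0.0590 in that difference, which was 0.0011 with no filter. Leaving out 1 library at a time, Ppr-Y ran from -0.22 to 0.0073 in monogamous males and from -0.11 to 0.0107 averaged. In polygamous males ORY ran from -0.15 to 0.12, Ppr-Y from -0.0773 to 0.0920, WDY from -0.13 to 0.0023, ARY from -0.12 to 0.0157 and Pp1-Y2 from -0.11 to 0.0182. Between regimes kl-2 ran from -0.0606 to 0.0449 at 48 h; at 96 h kl-2 ran from -0.0445 to 0.0666, ORY from -0.25 to 0.0196, WDY from -0.0156 to 0.12 and PRY from -0.15 to 0.0261; over both ages kl-2 ran from -0.0319 to 0.0345, kl-5 from -0.0514 to 0.0013 and WDY from -0.0888 to 0.0176. The difference of age changes of kl-2 ran from -0.0551 to 0.0718. Using the longest transcript as length left the order of levels per kilobase as it was. Omitting monogamous population 1 was not applied to differences among monogamous populations.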

Other observations

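A further 61 genes of the counts files are annotated on the Y chromosome, 10 of them protein-coding, 28 non-coding and 23 pseudogenes. Of these, 15 passed the filter, 22 had 0 counts in all 12 libraries, and edgeR called 0 of the 15 in the averaged age comparison, with 0 at an unadjusted p under 0.05 and 0 called by DESeq2 (8 higher and 7 lower at 96 h). The most abundant were Mst77Y-7 (42.4 CPM), CG45765 (12.4 CPM) and CR45771 (10.7 CPM), of which Mst77Y-7 is 1 of a family of near-identical copies, so its count is uncertain. FDY and Pp1-Y1 are named after their values were seen. FDY, at 8.60 CPM, was higher at 96 h in 6 of 6 populations (log2 change 0.24 ± 0.13, edgeR adjusted p = 0.358), where 10.1% of all genes were higher in all 6. Pp1-Y1, a paralog of Pp1-Y2 on the same chromosome, was at 9.07 CPM with an age change of 0.08 ± 0.09 (edgeR adjusted p = 0.673), where Pp1-Y2 was at -0.15 ± 0.07.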
